A study of Mus musculus with 16 samples.

Results

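The cortical layer identity transcription factors followed here were 9 genes among the 53379 in each count file, found by mouse symbol. Of them 5 were factors of deep layer neurons (Bcl11b, Tbr1, Fezf2, Sox5 and Foxp2) and 4 of upper layer neurons (Cux1, Cux2, Pou3f2 and Rorb). RNA was sequenced from MADM-labeled green cells sorted from mouse neocortex at P4. The labels give the strain as CD1, and the study's methods a mixed background of C57BL/6 and CD1. In these mice Emx1-Cre drives recombination in progenitors of the dorsal telencephalon and their descendants. MADM on chromosome 7 ties the color of a sparse labeled cell to its genotype, and green cells of both genotypes carried 2 paternal copies of that chromosome. Control animals (wt) gave Eed+/+ green cells. In mosaic animals, labelled het for Eed as a whole, the green cells were Eed-/-. A lacZ transgene under a human GFAP promoter divided the sort, with the GFP+/lacZ+ fraction taken for astrocytes and the GFP+/lacZ- fraction taken for neurons, so the neuron gate was defined by the lack of lacZ. There were 5 Eed+/+ astrocyte, 5 Eed-/- astrocyte, 2 Eed+/+ neuron and 3 Eed-/- neuron libraries. Individual animals were the replicates of the astrocyte sort, and whether an astrocyte and a neuron library came from the same animal is not stated. A further library carried contradictory cell type labels and entered no comparison.

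Projection neurons of the neocortex are born in sequence, deep layers before upper layers, and the transcription factors expressed by a newborn neuron help to fix its layer and the target of its axon. Several of these factors repress each other, so that a layer is usually described by a combination of them. Eed belongs to the core of PRC2, a Polycomb complex that trimethylates histone H3 at lysine 27 and is known to hold many developmental transcription factor genes silent, often at CpG-rich promoters. Members are given as deep or upper layer factors for their role in neurons, although Sox5, Pou3f2 and Rorb are also expressed in progenitors or in glial cells.

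Because CpG-rich promoters are the usual sites of PRC2, the members' promoters were read from RefSeq (GRCm38.p6), which held 10 windows of 300 bases for 8 of the 9 members. The windows reached from 250 bases before a start to 50 after it. The number of CG dinucleotides (a motif that reads the same on both strands) was 3 to 48 in these windows, with a median of 14.5, against a median of 7 over all 32851 windows, of which 94.6% held at least 1 CG. Shown here are the 250 bases before a start of Cux2 (chr5:122049852-122050101, minus strand), the member window richest in CG, of Pou3f2 (chr4:22488367-22488616, minus strand), the member with the highest level per length, and of Sox5 (chr6:143947107-143947356, minus strand), the window poorest in CG. Each is written 5′ to 3′ with every CG in capitals. They are descriptions of the reference, and no chromatin mark was measured in these libraries. The Sox5 window lay at a start inside the gene (143828425 to 144781977). No window stood at the gene's 5′ end, 144781977 on the minus strand, so this window does not describe a promoter there.

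Cux2: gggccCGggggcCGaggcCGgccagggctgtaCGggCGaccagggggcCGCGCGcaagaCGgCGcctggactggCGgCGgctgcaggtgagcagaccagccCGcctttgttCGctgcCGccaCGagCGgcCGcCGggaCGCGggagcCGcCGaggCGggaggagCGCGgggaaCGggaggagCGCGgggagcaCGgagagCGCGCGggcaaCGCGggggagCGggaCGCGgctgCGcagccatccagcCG
Pou3f2: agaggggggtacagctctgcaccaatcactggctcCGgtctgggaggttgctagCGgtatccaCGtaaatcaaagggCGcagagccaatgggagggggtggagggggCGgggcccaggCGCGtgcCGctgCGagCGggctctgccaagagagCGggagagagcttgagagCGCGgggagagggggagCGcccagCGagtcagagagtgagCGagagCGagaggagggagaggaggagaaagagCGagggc
Sox5: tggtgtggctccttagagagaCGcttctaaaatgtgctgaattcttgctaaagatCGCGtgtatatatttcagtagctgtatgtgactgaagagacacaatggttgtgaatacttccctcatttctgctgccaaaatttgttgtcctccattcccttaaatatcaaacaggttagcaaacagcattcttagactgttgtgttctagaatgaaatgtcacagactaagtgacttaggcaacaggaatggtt

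The Cux2 stretch held 40 CG, that of Pou3f2 18 and that of Sox5 3.

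Library quality touched every value below. Counts summed over genes ranged from 211736 to 3178529, and 5 of the 15 labeled libraries lay outside the alignment limits used here (at least 1000000 uniquely aligned reads and at least 60% of reads uniquely aligned). These were Eed-/- astrocyte replicates 1, 3 and 4, Eed+/+ astrocyte replicate 3 and Eed+/+ neuron replicate 2. The study left some libraries of this series out after inspecting them and does not name them in the sources used here. All 15 were kept here, so the main values can include libraries that the authors set aside. Eed, the targeted gene, was read at 3.85 to 80.7 in Eed+/+ and 0 to 17.0 in Eed-/- astrocytes, and at 65.0 and 77.0 in Eed+/+ and 16.5 to 42.5 in Eed-/- neurons. Here and below, levels are CPM, that is counts per 1000000 gene reads, scaled by TMM between libraries. The count of Eed covered the whole gene, so it checks the genotype in part. The astrocyte ranges overlapped: Eed+/+ replicate 3 was at 3.85 CPM (2 reads), below Eed-/- replicates 2 and 5 at 17.0 and 13.4 CPM.

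The sorted fractions were first set against markers of the named cell types and of others that a sort could hold. All 12 astrocyte markers were detected in each of the 5 neuron libraries, at a summed level of 9274 to 20260 CPM, against 4622 to 61816 CPM in the 10 astrocyte libraries. The 10 neuron markers summed to 989 to 2798 CPM in neuron libraries and to 0 to 4024 CPM in astrocyte libraries. Over all 15 libraries the sums of both sets overlapped, and 0 of 12 astrocyte and 0 of 10 neuron markers passed the edgeR test between cell types, where 1 of each had an unadjusted p under 0.05. Estimates were lower in neurons for 10 of 12 astrocyte and for 4 of 10 neuron markers, and the neuron marker with the unadjusted p under 0.05 (Syt1, at -3.82 ± 1.79, SE) was one of the latter. Within the alignment limits the astrocyte marker sums did not overlap (22061 to 61816 CPM in astrocyte and 9274 to 20260 CPM in neuron libraries). Of the 12 astrocyte markers 2 did not overlap there, Aqp4 (a water channel, at least 1106 against at most 808 CPM) and Apoe (an apolipoprotein, at least 10405 against at most 9525 CPM), beside 3.28% of all genes, and 10 overlapped. The neuron marker sums and 10 of 10 neuron markers overlapped there too. The 7 oligodendrocyte lineage markers were detected in each neuron library, at 1279 to 3835 CPM in sum (130 to 5225 CPM in astrocyte libraries), and 8 interneuron markers summed to 548 to 952 CPM (0 to 835 CPM in astrocyte libraries). In Eed-/- astrocyte replicate 1 none of the neuron markers was detected, while 6 of 6 microglia markers were, at 4587 CPM in sum, and erythroid markers summed to 4692 CPM. Microglia markers summed to 1248 CPM in Eed-/- astrocyte replicate 3 and erythroid markers to 8346 CPM in replicate 4. In bulk samples such as these, fewer cells of a type and less RNA per cell cannot be told apart.

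**Figure D1:**
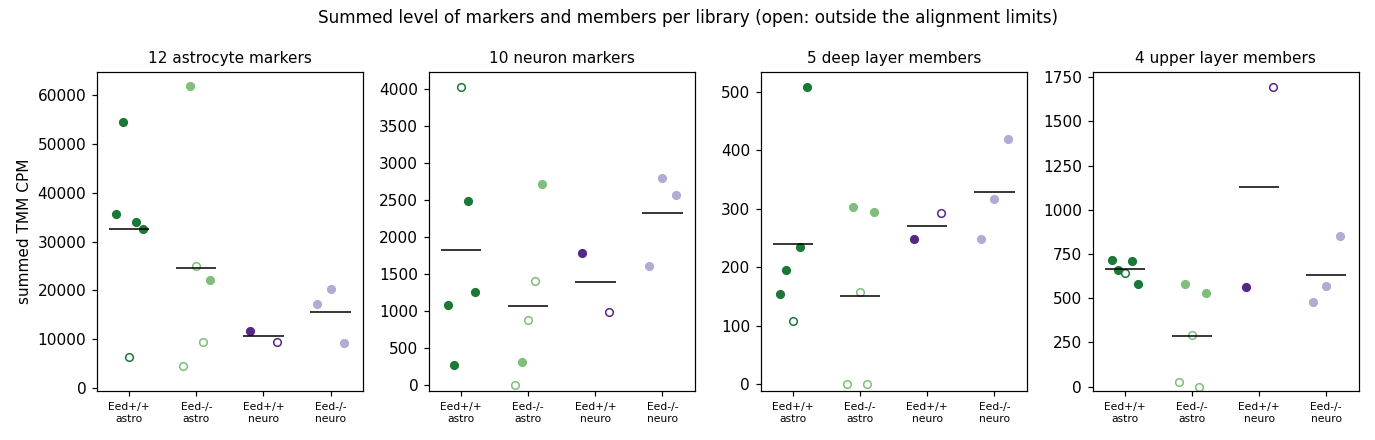
Summed TMM CPM (y axis) of 12 astrocyte markers, 10 neuron markers, the 5 deep layer members and the 4 upper layer members, with 1 point per library in the 4 groups; lines are group means and open points are libraries outside the alignment limits. The groups overlap in the neuron markers, which reach 4024 CPM in an astrocyte library.

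Layer factors were read in both sorted fractions. All 9 members had reads in each of the 5 neuron libraries, and together they took 0.0737% to 0.195% of the gene reads there. Eed+/+ astrocyte libraries held 7 to 9 of the members, at 0.0681% to 0.105% of gene reads. Among Eed-/- astrocytes, replicates 2 and 5 held 7 and 9 members. Replicate 3 held 6, replicate 1 had 16 reads over 2 members, and replicate 4 had 0 member reads, where 3 reads would have given 14.2 CPM before TMM scaling.

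**Figure D2:**
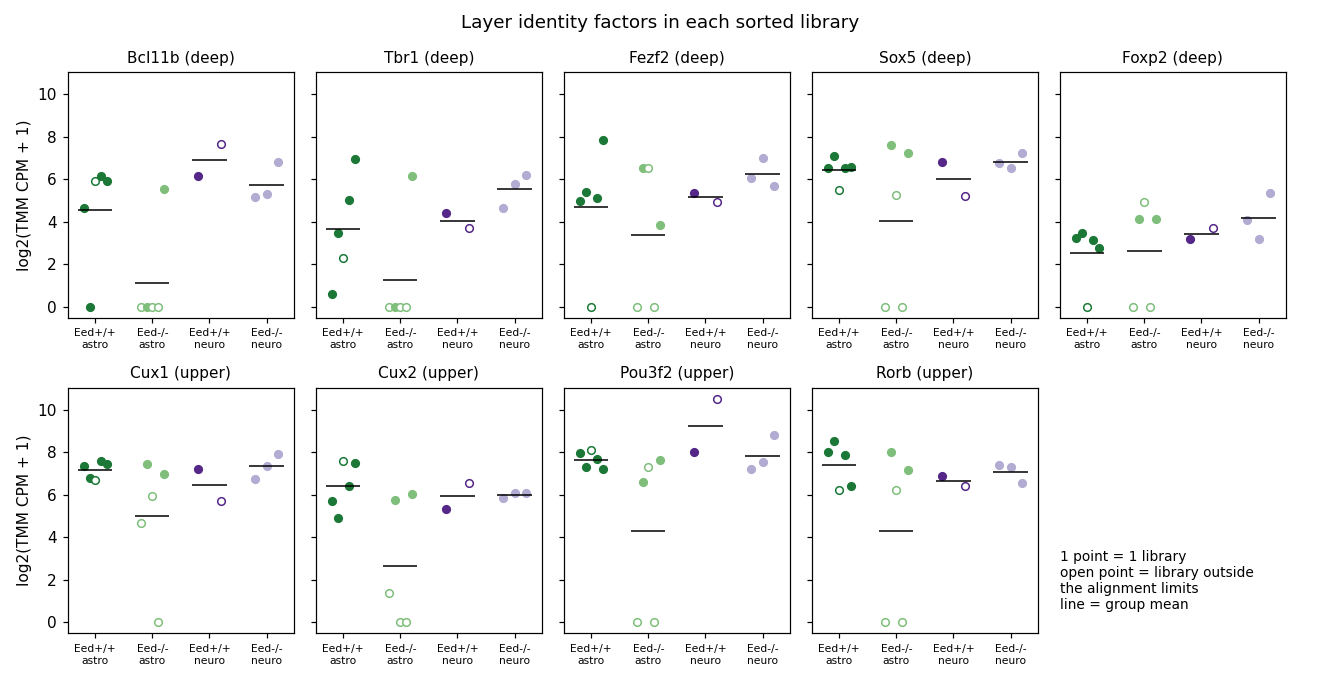
Level of each member as log2(TMM CPM + 1) on the y axis, in the 4 groups on the x axis, with 1 point per library; open points are libraries outside the alignment limits and lines are means of the log values. Bcl11b and Tbr1 lie at 0 in 4 of 5 Eed-/- astrocyte libraries, and Pou3f2 reaches 1469 CPM in an Eed+/+ neuron library.

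Among the deep layer factors, Bcl11b (Ctip2; ENSMUSG00000048251.15, chromosome 12, 107910403 to 108003602, minus strand, GRCm38) is a zinc finger factor needed by layer V neurons that project below the cortex. Its level in Eed+/+ astrocytes, listed from replicate 1 to 5 here and for the other members, was 24.4, 0, 59.7, 69.4 and 59.6 CPM. Eed-/- astrocytes gave 0, 0, 0, 0 and 46.0 CPM. In neurons it was 69.3 and 204 CPM in Eed+/+ and 34.5, 38.5 and 110 in Eed-/- libraries. All neuron libraries had Bcl11b, whereas 5 of 10 astrocyte libraries had none, and the ranges overlapped.

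Tbr1 (ENSMUSG00000035033.15, chromosome 2, 61802930 to 61814114, plus strand), a T-box factor of layer VI corticothalamic neurons, was at 0.530, 9.89, 3.85, 31.8 and 122 CPM in Eed+/+ astrocytes. In Eed-/- astrocytes it had no reads in replicates 1 to 4 and 70.9 CPM in replicate 5. Eed+/+ neurons had 20.4 and 11.8 CPM, below the 24.3, 54.0 and 72.0 CPM of Eed-/- neurons. Its highest level was thus in an astrocyte library.

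Fezf2 (ENSMUSG00000021743.6, chromosome 14, 12342094 to 12348189, minus strand), a zinc finger factor that specifies subcerebral projection neurons of layer V, was at 30.7, 41.5, 0, 34.2 and 227 CPM in Eed+/+ and at 0, 92.2, 90.4, 0 and 13.4 CPM in Eed-/- astrocytes. It was at 39.7 and 29.6 CPM in Eed+/+ and at 65.1, 126 and 50.2 CPM in Eed-/- neurons. As for Tbr1, the highest value belonged to Eed+/+ astrocyte replicate 5.

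Sox5 (ENSMUSG00000041540.16, chromosome 6, 143828425 to 144781977, minus strand), a SOX factor that times the production of deep layer neuron types, was read more evenly. It was at 90.5, 134, 44.3, 91.0 and 93.6 CPM in Eed+/+ astrocytes and at 0, 195, 37.2, 0 and 148 CPM in Eed-/- astrocytes. In neurons it was at 110 and 35.5 CPM (Eed+/+) and at 108, 90.8 and 148 CPM (Eed-/-). Foxp2 (ENSMUSG00000029563.16, chromosome 6, 14901349 to 15441977, plus strand), a forkhead factor of layer VI, had the lowest mean CPM of the members except in Eed-/- astrocytes. There its mean was 12.4 CPM and that of Bcl11b 9.20 CPM. Foxp2 was between 0 and 9.89 CPM in Eed+/+ astrocytes, 0 and 29.3 in Eed-/- astrocytes, 8.05 and 11.8 in Eed+/+ neurons and 8.04 and 39.6 in Eed-/- neurons.

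Among the upper layer factors, Pou3f2 (Brn2; ENSMUSG00000095139.2, chromosome 4, 22482780 to 22488366, minus strand), a POU factor of upper layer neuron production and migration, was at 249, 156, 274, 201 and 147 CPM in Eed+/+ and at 0, 97.4, 157, 0 and 196 CPM in Eed-/- astrocytes. It was at 256 and 1469 CPM in Eed+/+ neurons and at 146, 184 and 451 CPM in Eed-/- neurons. The value of 1469 CPM came from Eed+/+ neuron replicate 2, which lay outside the alignment limits.

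Cux2 (ENSMUSG00000042589.18, chromosome 5, 121856366 to 122050102, minus strand), a homeodomain factor of layers II to IV, was at 50.8, 28.9, 195, 85.1 and 179 CPM in Eed+/+ and at 1.62, 52.3, 0, 0 and 64.2 CPM in Eed-/- astrocytes. It was at 39.7 and 91.8 CPM in Eed+/+ neurons, a span that held all of the Eed-/- neuron values (57.3, 66.6 and 66.1 CPM). Its relative Cux1 (ENSMUSG00000029705.17, chromosome 5, 136248135 to 136567490, minus strand), which also marks these layers, was between 104 and 189 CPM in Eed+/+ astrocytes, 0 and 175 in Eed-/- astrocytes, 50.3 and 148 in Eed+/+ neurons and 107 and 240 in Eed-/- neurons. The Cux1 gene also encodes a Golgi protein (CASP), and the counts do not separate the products.

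Rorb (ENSMUSG00000036192.15, chromosome 19, 18930605 to 19111196, minus strand), a nuclear receptor of layer IV, ranged from 73.2 to 367 CPM in Eed+/+ astrocytes and from 0 to 256 CPM in Eed-/- astrocytes. It was at 118 and 82.9 CPM in Eed+/+ and at 168, 158 and 93.9 CPM in Eed-/- neurons. The highest Rorb level was in Eed+/+ astrocyte replicate 2, the library with the fewest neuron marker reads of its group (270 CPM in sum).

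Levels can be compared between genes only per length, so CPM was divided by kilobases of merged exons. On that scale Pou3f2 was the highest member in each of the 4 groups and Foxp2 the lowest. In Eed+/+ astrocytes the order began with Pou3f2 (36.8 ± 9.96 CPM per kb, SD, n = 5), Fezf2 (21.9 ± 29.9) and Rorb (18.3 ± 11.2) and ended with Bcl11b (5.25 ± 3.62) and Foxp2 (0.391 ± 0.237). The place of Fezf2 rested on replicate 5, without which its mean was 8.74 ± 6.01 CPM per kb (SD, n = 4), behind Pou3f2 (39.4), Rorb and Cux2 (8.91). In Eed+/+ neurons Bcl11b took the second place (16.9 ± 11.8 CPM per kb, SD, n = 2), behind Pou3f2 (154 ± 153). Both values rested on Eed+/+ neuron replicate 2: in replicate 1 alone Bcl11b was at 8.54 CPM per kb, behind Pou3f2 (45.8), Fezf2 (13.0) and Rorb (10.6). In Eed-/- neurons Pou3f2 (46.6 ± 29.8 CPM per kb, SD, n = 3) was followed by Fezf2 (26.4 ± 13.1) and Rorb (12.6 ± 3.63). Neighbors in the order overlapped within 1 SD of their means everywhere except at the step down to Foxp2, which was clear in Eed+/+ astrocytes and in neurons of both genotypes but not in Eed-/- astrocytes.

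The share of the members' length-scaled reads that fell on the 4 upper layer factors was 80.2%, 73.2%, 87.8%, 69.9% and 35.1% in Eed+/+ astrocytes. It was 100% in Eed-/- astrocyte replicate 1, on 16 reads, and 54.9%, 52.6% and 63.9% in replicates 2, 3 and 5. In Eed+/+ neurons the share was 67.0% and 87.5%, and in Eed-/- neurons 57.6%, 49.7% and 65.9%. The neuron genotypes did not overlap, although the nearest libraries (67.0% and 65.9%) were close, and the 87.5% was again that of Eed+/+ neuron replicate 2. Group means were 69.2 ± 20.3% (SD, n = 5), 67.9 ± 22.0% (SD, n = 4), 77.2 ± 14.5% (SD, n = 2) and 57.7 ± 8.09% (SD, n = 3) in the same order. The share is a description and was not tested.

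**Figure D3:**
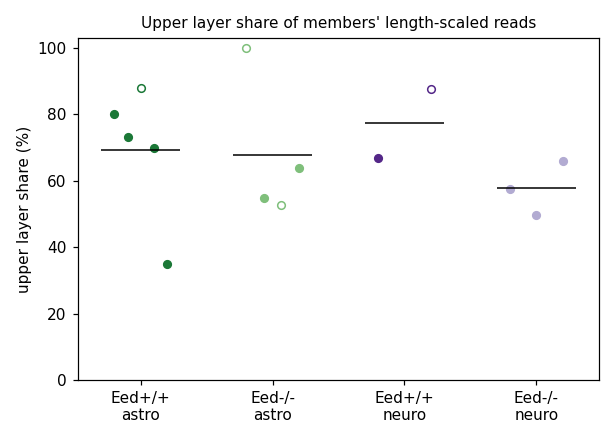
Percent of the members' reads per kilobase that fell on Cux1, Cux2, Pou3f2 and Rorb (y axis), with 1 point per library and group means as lines; open points are libraries outside the alignment limits, and the library with 0 member reads is left out. The astrocyte libraries spread from 35.1% to 100%, across both neuron groups.

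Whether the members differed between the sorted cell types was tested over the 15 libraries (neuron minus astrocyte, averaged over genotypes). The edgeR quasi-likelihood test with Benjamini-Hochberg adjustment called 0 of 9 members, with DESeq2 and limma-voom also at 0, against 0.015% of the 13367 genes tested (2 genes). Unadjusted p was under 0.05 for 2 of 9 members, against 5.51% of all genes. These were Bcl11b, at a log2 fold change of 2.18 ± 1.09 (SE; adjusted p = 0.90), and Pou3f2, at 1.81 ± 0.87 (SE; adjusted p = 0.844). The other 7 members lay between -0.24 ± 1.00 (Rorb) and 0.69 ± 1.28 (Foxp2). The members' median was 0.31 and that of all genes 0.34. No member was free of overlap between the cell types (0 of 9, against 0.516% of genes), nor within the alignment limits (0 of 9, against 3.28%). Over the 10 libraries within the alignment limits Bcl11b was at 1.16 and Pou3f2 at 0.65, with adjusted p of 0.879 and 0.740. Without Eed+/+ neuron replicate 2 alone Pou3f2 was at 0.91, and without Eed-/- astrocyte replicate 5, the only Eed-/- astrocyte library with reads of Bcl11b or Tbr1, Bcl11b was at 5.56 (adjusted p = 0.0652) and Tbr1, at 0.31 over all libraries, was at 3.98 (adjusted p = 0.147). In that fit both genes were at 0 in every Eed-/- astrocyte library, so the size of the estimate depends on the prior count. Library numbers in the deposited names fell into 2 runs, and all neuron libraries were in the first. Within that run Bcl11b was at 6.46, Tbr1 at 5.38 and Pou3f2 at 1.82, with adjusted p of 0.178, 0.178 and 0.473. Its 3 Eed-/- astrocyte libraries had 0 reads of Bcl11b and Tbr1, so the size of those estimates too depends on the prior count.

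Bcl11b and Tbr1 were set beside the neuron markers library by library. Of the well aligned astrocyte libraries, Eed+/+ replicate 2 and Eed-/- replicate 2 had the lowest sums of neuron markers, 270 and 310 CPM. In them Bcl11b had 0 reads in both, and Tbr1 had 25 and 0 reads. Reads of the other members there numbered 340 and 298 for Sox5, 927 and 391 for Rorb, 274 and 268 for Cux1, 395 and 149 for Pou3f2, 105 and 141 for Fezf2, 73 and 80 for Cux2 and 25 and 25 for Foxp2. The astrocyte markers summed to 54470 and 61816 CPM in the same libraries, the highest of all 15. The other well aligned astrocyte libraries were Eed+/+ replicates 1, 5 and 4 and Eed-/- replicate 5. Neuron markers summed there to 1075, 1262, 2481 and 2716 CPM. Bcl11b was at 24.4, 59.6, 69.4 and 46.0 CPM in them, and Tbr1 at 0.530, 122, 31.8 and 70.9 CPM. Outside the alignment limits, Eed+/+ astrocyte replicate 3 (4024 CPM of neuron markers) had Bcl11b at 59.7 CPM. Eed-/- astrocyte replicate 1 (0 CPM of neuron markers) had 0 Bcl11b reads. Also outside the limits, Eed+/+ neuron replicate 2, with 989 CPM of neuron markers, had the highest Bcl11b level of all (204 CPM). Eed-/- astrocyte replicates 3 and 4, outside them too, had 880 and 1405 CPM of neuron markers and 0 Bcl11b reads. The well aligned neuron libraries were Eed-/- replicate 1, Eed+/+ replicate 1 and Eed-/- replicates 3 and 2. Neuron markers summed there to 1601, 1786, 2570 and 2798 CPM, with Bcl11b at 34.5, 69.3, 110 and 38.5 CPM. The part of neuron RNA in the members' levels was not tested.

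The genotypes were compared within astrocytes to see whether loss of Eed moved the layer factors. Tbr1 and Foxp2 fell under the filter on low counts, which left 7 members. edgeR called 0 of 7, as did DESeq2 and limma-voom, and 0% of the 8956 genes tested. No member had an unadjusted p under 0.05, against 1.21% of all genes. All 7 estimates were negative, from -0.14 ± 1.40 (SE) for Sox5 to -2.11 ± 1.50 for Cux2 (adjusted p = 1.00 for each), with -2.05 ± 1.65 for Bcl11b, -1.02 ± 1.30 for Pou3f2, -0.94 ± 1.30 for Rorb, -0.80 ± 1.35 for Cux1 and -0.68 ± 1.48 for Fezf2. Without Eed-/- astrocyte replicate 5, where all remaining Eed-/- libraries had 0 Bcl11b reads, Bcl11b was at -8.77 (adjusted p = 0.153). Without Eed+/+ astrocyte replicate 5 Fezf2 was at 0.78. Of all genes 71.4% were negative too, and the median was -0.94 for the members and -0.54 for all genes. The groups overlapped for 7 of 7 members (2.12% of genes did not overlap). Over the 4 Eed+/+ and 2 Eed-/- libraries within the limits Sox5 was at 0.82 and Cux1 at 0.01, and Sox5 alone did not overlap (90.5 to 134 CPM against 148 and 195), where 14.8% of genes did not. The sign of the Sox5 estimate thus changed when the poorly aligned libraries were left out. With standard errors of 1.30 to 1.65 on the log2 scale, differences of the size estimated were not detectable.

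In neurons edgeR called 0 of 9 members (and DESeq2 and limma-voom 0), against 0% of 11862 genes. An unadjusted p under 0.05 was found for 1 of 9 members and for 7.27% of genes. That member was Pou3f2, at -1.95 ± 0.84 (SE; adjusted p = 0.672). Without Eed+/+ neuron replicate 2 it was at 0.01, with an adjusted p of 1.00. Without Eed+/+ neuron replicate 1, where only the poorly aligned library was left to stand for Eed+/+ neurons, it was at -2.70 (adjusted p = 0.0103). In that fit the single Eed+/+ library was assumed to vary like the others, and 2601 genes were called. Bcl11b, at -1.34 ± 0.76 (adjusted p = 0.737), was at -0.20 without Eed+/+ neuron replicate 2.

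Tbr1 and Fezf2 were higher in every Eed-/- neuron library than in either Eed+/+ one, 2 of 9 members against 23.1% of all genes free of overlap, at 1.45 ± 0.83 (SE) and 1.01 ± 0.71 with adjusted p of 0.737 and 0.761. They did not pass the test. Within the alignment limits, with a single Eed+/+ library left, Cux2 joined them (3 of 9 members, against 38.9% of genes). The other members were at 1.02 ± 1.02 (Foxp2), 0.65 ± 0.68 (Cux1), 0.53 ± 0.67 (Sox5), 0.30 ± 0.61 (Rorb) and -0.24 ± 0.69 (Cux2). Leaving out 1 library at a time gave 0.14 to 1.42 for Foxp2 (lowest without Eed-/- replicate 3), 0.17 to 1.53 for Cux1 and 0.0333 to 1.47 for Sox5 (both lowest without Eed+/+ replicate 2 and highest without Eed+/+ replicate 1). The 5 deep layer members had a median of 1.01 and the 4 upper layer members of 0.03, beside 0.15 for all genes. With 1 library left out the deep layer median was between 0.26 (without Eed-/- replicate 3) and 1.17, and the upper layer median between -0.14 and 0.17. Of the 10 neuron markers 8 had positive estimates in the same comparison and 4 had an unadjusted p under 0.05, all higher in Eed-/- neurons, with no adjusted p below 0.644. The median of those markers was 2.01. The part of the neuron markers in the levels of Tbr1 and Fezf2 was not tested.

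**Figure D4:**
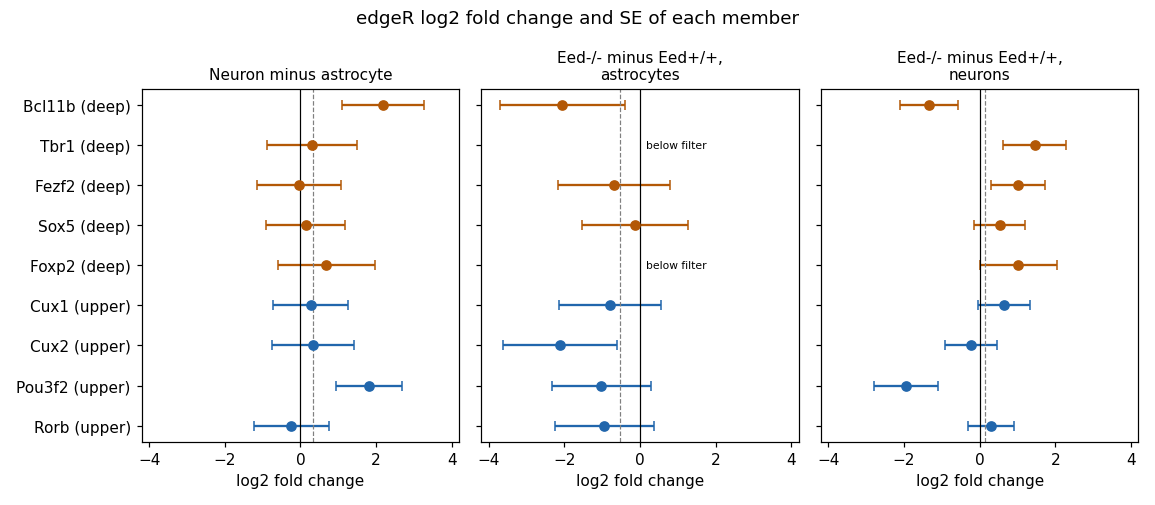
edgeR log2 fold change of each member (x axis) with its SE as bars, for neurons against astrocytes and for Eed-/- against Eed+/+ cells in astrocytes and in neurons; the dashed line is the median of all genes tested, brown points are deep and blue points upper layer factors. No member passed the threshold in any panel, and all 7 tested members lie left of 0 in astrocytes.

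Whether the genotype difference itself differed between cell types was tested as an interaction over the 15 libraries. edgeR called 0 of 9 members, DESeq2 and limma-voom 0, against 0.0524% of 13367 genes, and no member had an unadjusted p under 0.05 (3.61% of genes did). Estimates ran from -0.73 ± 1.81 (SE, Pou3f2) to 2.76 ± 2.55 (Tbr1), with a median of 1.38 beside 0.79 for all genes. The estimate of Tbr1 was 1.09 without Eed+/+ astrocyte replicate 5 and 10.1 without Eed-/- astrocyte replicate 5.

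Other genes of the same layers were followed from a list of 10 deep and 10 upper layer genes. Of the 19 that could be tested between cell types, edgeR called 0, and 2 had an unadjusted p under 0.05, against 5.51% of all genes. Syt6, a synaptotagmin of layer VI neurons, had 20 and 1 reads in Eed+/+ and 16, 10 and 31 in Eed-/- neurons. Among the 10 astrocyte libraries only Eed+/+ replicate 1 (2 reads) and Eed+/+ replicate 4 (4 reads) held any (adjusted p = 0.252). Levels of 2.96 CPM or more in neurons and 1.96 or less in astrocytes did not overlap, which was so for 0.516% of genes, although a single read gave the 2.96. Crym, a thyroid hormone binding protein used as a marker of deep layers, was the second deep layer gene (unadjusted p = 0.0127, adjusted p = 0.640), and reached 351 and 463 CPM in Eed-/- astrocyte replicates 2 and 5 against at most 45.4 in any neuron library. Of the upper layer list, Pou3f3, the POU relative of Pou3f2, was at 1.58 ± 0.84 (SE; adjusted p = 0.927) and Mdga1, a cell surface protein of upper layers, at 1.21 ± 1.22 (adjusted p = 1.00).

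Between the neuron genotypes 18 of these genes could be tested. edgeR called 0, and 4 had an unadjusted p under 0.05, against 7.27% of all genes. In this comparison 23.1% of all genes were free of overlap between the genotypes. Crym had 48, 79 and 43 reads in the 3 Eed-/- neuron libraries and 0 in the 2 Eed+/+ ones. Its mean in Eed-/- neurons (36.1 CPM) was 6.89 times the mean that 3 counts in each Eed+/+ library would give (5.25 CPM; adjusted p = 0.641). This is a ratio of means and not a bound for single libraries. Tle4, a corepressor of layer VI, was at 119 and 189 CPM in Eed+/+ and at 46.3, 25.8 and 96.2 CPM in Eed-/- neurons (-1.61 ± 0.71, SE; adjusted p = 0.678). Bhlhe22, a basic helix-loop-helix factor of upper layers, was at 8.05 and 2.96 CPM in Eed+/+ and at 25.1, 42.5 and 70.3 CPM in Eed-/- neurons (2.76 ± 0.94, SE; adjusted p = 0.646). Pou3f3 was at 439 and 1608 CPM in Eed+/+ and at 267, 326 and 522 CPM in Eed-/- neurons (-1.69 ± 0.75, SE; adjusted p = 0.679). As for Pou3f2, its highest value was that of Eed+/+ neuron replicate 2. Of the 12 genes that could be tested in astrocytes edgeR called 0. Beside 1.21% of all genes, 1 of the 12 had an unadjusted p under 0.05. This was Crym, at 5.11 ± 1.63 (SE; adjusted p = 1.00). Its level was 3.18, 12.3, 0, 11.2 and 1.28 CPM in Eed+/+ astrocytes and 0, 351, 0, 88.3 and 463 CPM in Eed-/- astrocytes, and the ranges overlapped.

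The genes most like each member in pattern over the 15 libraries were found by the root mean square difference of log2(CPM + 1), each gene centered on its own mean, among 13366 other genes. The closest likeness was between Cux1 and Eif2s2, at 0.404, with Mettl9 next at 0.463, against a median over all genes of 1.90. Rorb followed with Hey1 (0.409) and Rer1 (0.422), and Sox5 with Tmx1 (0.412) and Zfand3 (0.419). Pou3f2 was nearest to Jund (0.483) and Celf1 (0.491), Cux2 to Nub1 (0.556) and Uhrf2 (0.582), Foxp2 to Nab1 (0.621) and Gca (0.656), and Fezf2 to F8a (0.656) and E2f6 (0.673). The least closely matched were Bcl11b, with Mex3b (0.857) and Nova2 (0.882), and Tbr1, with Serpini1 (1.10) and Gypc (1.15). Among the members Sox5 and Rorb, a deep and an upper layer factor, were the most alike (0.642), and Bcl11b and Fezf2, both of layer V, the least (3.30). These points share library depth and the libraries with no member reads, and they describe likeness only.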

How the data were processed

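Green cells were sorted from P4 neocortex and full-length cDNA libraries were made from few cells. The authors aligned reads with STAR to mm10 (GRCm38) and deposited raw counts per gene, not normalized and not pooled. The study states alignment settings that kept uniquely aligned reads for its embryonic libraries; for the present ones the settings and the annotation release are not given in the sources used here. First strand reads were 46.7% to 52.7% of the stranded reads in labeled libraries, so the unstranded counts were used. Overlapping and antisense genes cannot be told apart this way: exons of Sox5 and Cux1 share 1330 and 394 bases with the antisense genes Sox5os1 and Gm16599. The 4 lines of totals that name no gene were left out; reads outside genes were 8.55% to 71.6% of uniquely aligned reads. Identifiers were matched to GENCODE mouse release 21 (53274 matched, 105 not).

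Genes were tested with edgeR 4.0.16 in R 4.3.3 (quasi-likelihood, TMM, filterByExpr, robust), two-sided, with Benjamini-Hochberg adjustment over all genes tested and a threshold of 0.05. The genotypes were compared within astrocytes (5 against 5) and within neurons (2 against 3), and the cell types and the interaction over all 15 libraries, which then share 1 estimate of the spread. SE was the log2 fold change over the square root of F. DESeq2 1.42.0, limma-voom (limma 3.58.1) with sample quality weights, RLE scaling, no filter, the 10 libraries within the alignment limits, a replicate block, the runs of library numbers in the deposited names and leaving out each library were the alternatives. The statistical scripts were tested on simulated data. edgeR recovered 23 of 97 genes given a log2 change of 4 between cell types and 3 of 83 in astrocytes. In neurons it recovered 76 of 99 and for the interaction 1 of 94. At a log2 change of 2 it recovered 2 of 97, 0 of 80, 12 of 100 and 0 of 95. Unchanged genes called numbered 0, 1, 18 and 0 with edgeR and 76, 24, 25 and 22 with DESeq2. Differences of these sizes could thus go uncalled, most of all outside the neuron comparison.

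Named genes were all 9 members, the 2 genes of each layer list with the smallest p between cell types and between neuron genotypes, and the 2 genes nearest each member. Single cell type markers were named after their values were seen. Members and lists were chosen with earlier results of these data known. No 2 libraries were identical (0 pairs). Floors of 3 counts (0.944 to 14.2 CPM before TMM scaling) cover counting error only, since reads without molecular identifiers are not independent molecules.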

Additional observations from a re-analysis of the deposited data

Results flagged for a closer look

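A library that stood apart by Dixon's criterion was looked for in 18 groups of member levels and 2 groups of upper layer shares, and 4 were found, all of them member levels. Chance flags about 1 in 20 groups of continuous values, a rate that cannot be set against these 4, since 2 of them are groups in which all libraries but 1 were at 0. Tbr1 was at 122 CPM in Eed+/+ astrocyte replicate 5, against 31.8 CPM in the next library of that group. Fezf2 was at 227 CPM in the same library, with the next at 41.5 CPM. Bcl11b was at 46.0 CPM and Tbr1 at 70.9 CPM in Eed-/- astrocyte replicate 5, and both had no reads in the other 4 libraries of that group. The 4 flagged values thus came from 2 libraries. Neuron markers summed to 2716 CPM in Eed-/- astrocyte replicate 5 and to at most 1405 CPM in the rest of its group. In Eed+/+ astrocyte replicate 5 they summed to 1262 CPM, within the 270 to 4024 CPM of its group.

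Rorb had a signal in the library whose labels name both cell types, which entered no comparison. It was at 650 CPM before TMM scaling (144 of 221456 gene reads), against at most 292 in any Eed+/+ library. Of the 12 astrocyte markers 3 were likewise above every Eed+/+ library there: Slc1a3 (12106 against 6379 CPM), Aldh1l1 (1617 against 776 CPM) and Fgfr3 (989 against 621 CPM). Aqp4 (280 against at least 347 CPM), Gfap and Sox9 (both with 0 reads) were below every Eed+/+ library, and 5 were within their range. S100b also had 0 reads, but its lowest Eed+/+ level (2.09 CPM) is under the 13.5 CPM that 3 reads give here.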

How the results depend on the processing

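Over 643 alternative estimates of single members in the 4 comparisons, 589 kept their direction and side of the threshold, 53 changed sign and 1 passed the threshold (Pou3f2 in neurons without Eed+/+ neuron replicate 1). The cause of the changes was not tested. Some of these fits held fewer libraries, but signs also changed in fits that kept every library. Of the group levels, those of Sox5, Cux1 and Cux2 in Eed-/- astrocytes were higher by more than 1 SD within the limits (to 172, 151 and 58.2 CPM). The upper layer shares moved by less than 1 SD under every alternative run. For leaving out a library this was fixed in advance, since a mean cannot move by the SD of its own libraries in that way. Without division by length the shares in Eed-/- neurons were 65.9%, 64.3% and 67.0%, against 57.6%, 49.7% and 65.9% with it.

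Genes called between cell types numbered 2, and 5 with DESeq2, 0 without the filter, with limma-voom, within the limits, with the replicate block and in the first run of library numbers, and 0 to 5 when 1 library was left out. In astrocytes the count was 0, and 1 with DESeq2, 5 without the filter, 46 in the fit over all 15 libraries, 4 in the first run and 0 to 1 with a library left out. In neurons it was 0, and 26 with DESeq2, 127 without the filter, 1 within the limits, 3 in the fit over all 15 libraries and 0 to 2601 with a library left out, of which members numbered 0 to 1. The interaction count was 7, and 21 with RLE scaling, 2 without the filter or with the block, 0 with limma-voom, within the limits and in the first run, and 1 to 12 with a library left out.

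Changes of sign between cell types were, for Fezf2 (-0.04), 0.0425 (log2) without the filter, 0.87 with limma-voom, 0.56 with the block and 0.10 in the first run; for Rorb (-0.24), 0.0715 with limma-voom; and within the limits, -0.26 for Tbr1, -0.22 for Sox5 and -0.50 for Cux2. Sox5 was at -0.0665 in the first run. With a library left out the ranges were -0.23 to 0.68 (Fezf2), -0.36 to 0.44 (Sox5), -0.44 to 0.11 (Rorb), -0.19 to 0.56 (Cux1) and -0.0498 to 0.72 (Cux2). In astrocytes Sox5 was at 0.12 with limma-voom, 0.82 within the limits and 0.0594 in the second run, Cux1 at 0.0095 within the limits and Fezf2 at 0.90 in the first run. Left-out ranges were -0.76 to 0.18 (Sox5) and -1.34 to 0.78 (Fezf2, the highest without Eed+/+ astrocyte replicate 5). In neurons Cux2 was at 0.17 with limma-voom and 0.62 within the limits, and Pou3f2 at 0.0060 within the limits, with left-out ranges of -0.77 to 0.62 and -2.70 to 0.0060. In the interaction Foxp2 was at -0.42 with DESeq2, -0.43 with RLE scaling and -0.12 with limma-voom, Pou3f2 at 0.16 with limma-voom, 0.26 within the limits and 0.79 with the block, and Sox5 at -0.81 within the limits. Left-out ranges there were -0.91 to 0.62 (Foxp2), -1.50 to 1.11 (Pou3f2) and -0.0148 to 7.60 (Bcl11b).

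Correlations of same-numbered libraries, taken as deviations from their group means, ran from -0.253 to 0.165. In groups this small they cannot show whether libraries of the same number share an animal, and the labels do not tie a number to an animal. With the replicate block 0 members were called in any comparison. All neuron libraries fell in the first run of library numbers, so no second-run value exists for neurons. In the 4 astrocyte libraries outside the limits 3 counts stood for 6.28 to 14.2 CPM before TMM scaling, so lower levels were not detectable there.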

Other observations

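The library with contradictory cell type labels (Eed-/-) was taken with no group. Besides the 144 reads of Rorb it had 2 reads of Pou3f2, 1 of Cux2 and 0 of the other 6 members, where 3 reads would have given 13.5 CPM. Of the 12 astrocyte markers 9 were detected in it, with 8331 reads in sum, and of the 10 neuron markers 2, with 2 reads in sum. It had 586004 uniquely aligned reads, 17.7% of its reads, and 2397 genes with at least 1 read, each below the lowest of the labeled libraries (770215 reads, 26.1% and 2959 genes).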
